A study of Rattus norvegicus with 158 samples.

Results

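Buspirone was represented by 6 of the 122 arrays of dosed rats in the series, which also holds 36 arrays of rats given a vehicle alone. Of the 6, 3 came from rats sampled after 3 d and 3 from rats sampled after 5 d, and they were chosen by the compound named in the source label. They were set against the 12 arrays labelled CMC, 7 at 3 d and 5 at 5 d, which came from rats given that vehicle and no compound. Transcript levels had been measured in thigh muscle, 1 array per animal sample, and are given as log2 RMA levels, on which a difference of 1 is a doubling. All rats were male Sprague-Dawley rats of 6 to 8 weeks, dosed daily by oral gavage. The Buspirone rats received 196 mg/kg in CMC. Flunarizine at 126 mg/kg and Pentoxifylline at 1170 mg/kg, both in CMC and with 6 arrays each, shared 2 of the 3 RNA extraction dates of Buspirone.

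Buspirone is an anxiolytic drug that acts as a partial agonist of the serotonin receptor encoded by Htr1a and also binds dopamine receptors, and its main metabolite blocks adrenergic receptors of the alpha-2 class. Adult muscle fibres do not divide, and the transcripts of mitosis found in a piece of muscle come mostly from the nuclei of other cells, among them satellite cells, fibroblasts, vessel cells and immune cells. The same cells make much of the collagen, elastin and basement membrane that surround the fibres. Muscle also runs a circadian clock, in which Bmal1 drives the Per and Rev-erb genes and the Rev-erb proteins in turn repress Bmal1, so that the level of each depends on the hour at which the tissue is taken.

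No CMC control shared an RNA extraction date with Buspirone. The 6 Buspirone arrays came from 3 extraction dates, named here as batches D, E and G with 1, 2 and 3 arrays, while the CMC controls came from batches A and C. Extraction and treatment therefore cannot be told apart in the comparison with CMC. No CMC array carried the code in the sample titles of the Buspirone arrays, so title code and treatment cannot be told apart either. Buspirone was also set against the 49 arrays of 13 other compounds extracted on its own dates, with terms for time and date. These were Atenolol, Chlorpropamide, Dexchlorpheniramine, Flunarizine, Gabapentin, Glyburide, Guanethidine, Levosulpiride, Oxybutynin, Pentoxifylline, Phenytoin, Spironolactone and Trimethadione, each in its own vehicle. That set holds dosed rats only, so a response shared by many drugs is lost in it. Within it only the Flunarizine arrays carried the title code of Buspirone, and the model had no term for that code. The 4 Buspirone arrays of batches D and G had been hybridized in the later of 2 periods, in which no CMC array lay.

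The arrays carried the transcripts of skeletal muscle throughout, with a summed level of 14 markers between 17.28 and 17.63 in Buspirone and between 17.51 and 17.63 in CMC. Transcripts of heart muscle were an exception. Mylk3, the myosin light chain kinase of heart muscle, stood at 9.01 on Buspirone 3 d replicate 1 and 8.04 on Buspirone 5 d replicate 1, against 4.03 to 4.53 on the other 4 Buspirone arrays and 3.94 to 4.77 in CMC. Tnnt2, the troponin T of heart, stood at 10.91 and 9.46 on those same arrays and Tnni3, the troponin I of heart, at 8.93 and 7.15. On the other 4 Buspirone arrays Tnnt2 was 6.03 to 6.39 and Tnni3 4.99 to 5.72, and in CMC they were 5.89 to 8.91 and 4.91 to 7.21. The highest CMC values of both belonged to CMC 3 d replicate 7, where Tnni3 was above the 7.15 of Buspirone 5 d replicate 1 and Mylk3 was 4.77. That array stayed in the results without arrays with heart transcripts, which were known by Mylk3. In the whole series 9 arrays had Mylk3 between 7.03 and 10.54, and the other 149 had at most 5.05. Of the 9 arrays, 8 belonged to the 15 arrays of batch E. The Buspirone arrays concerned are both arrays of batch E and both arrays of the earlier hybridization period, so these 3 properties cannot be told apart, and results are also given for the other 4 Buspirone arrays. A further array stood apart among the controls: CMC 5 d replicate 2 carried lymphocyte transcripts, with Cd3g, a chain of the T cell receptor complex, at 10.26 against 4.76 to 5.05 on the other CMC arrays. Among the same-date compounds, Pentoxifylline 3 d replicate 3 (Cd3g at 11.02) and Glyburide 3 d replicate 1 carried lymphocyte transcripts too. The difference between the 3' and 5' probe sets of Gapdh, a measure of RNA integrity, was 0.200 to 0.356 in Buspirone and 0.095 to 0.278 in CMC.

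Against CMC, genes of cell division, genes of the extracellular matrix and vessel wall and the single genes Hk2, Prkab2, Phkg1 and Irs1 fell in Buspirone, and the clock genes Nr1d2 and Dbp rose. Calls required a fold of at least 1.5 and an adjusted p no higher than 0.01, computed over 14217 genes. Of all genes 62 were called, a share of 0.436%, with 6 higher (0.0422%) and 56 lower (0.394%). Among the falls, 20 were of 1 or more on the log2 scale. In 26 of the 56 genes all 6 Buspirone arrays lay below all 12 CMC arrays, which held for 65 of all genes (0.457%). In 3 of the 6 rises all Buspirone arrays lay above all CMC arrays, which held for 7 of all genes (0.0492%). The count depended on single arrays. Without Buspirone 3 d replicate 1 only Cdkn3 was called, although all 62 genes had the same sign and an adjusted p no higher than 0.05. Without both arrays with heart transcripts the count was 0 by limma, with 2350 genes (16.5%) at an unadjusted p under 0.05. It was 69 without CMC 3 d replicate 7, and 2, Cdkn3 among them, without that array and both arrays with heart transcripts. Without the arrays with heart transcripts all 62 genes had the same sign and an unadjusted p under 0.05. Of them 39 had an adjusted p no higher than 0.05, which 65 of all genes had (0.457%). The median gene of the 62 had 95.0% of its difference. Of the called genes, 21 had 30 further probe sets, of which 5 had the other sign.

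Against the other compounds of the same dates no gene was called by limma or by the methods' t-test, and 775 genes (5.45%) had an unadjusted p under 0.05, 276 higher (1.94%) and 499 lower (3.51%). That count of 775 was 286 of 14217 genes without Buspirone 5 d replicate 2. It was 636 to 1131 when any other single Buspirone array was left out. With all arrays, 58 of the 62 genes called against CMC had the same sign against the same-date compounds. Of these, 18, all lower, also had an unadjusted p under 0.05. The median gene had 24.6% of its difference from CMC. The 12 genes of mitosis among the 62 were all among these 18. Both comparisons use the same Buspirone arrays, by which the 62 genes were chosen, so these counts are not independent support. When the arrays with heart transcripts were left out of both sides, 3 of these 12 genes had an unadjusted p under 0.05, Cdkn3 (-0.67), Ccnb2 (-0.49) and Ube2c (-0.28), and all 12 were lower.

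**Figure D1:**
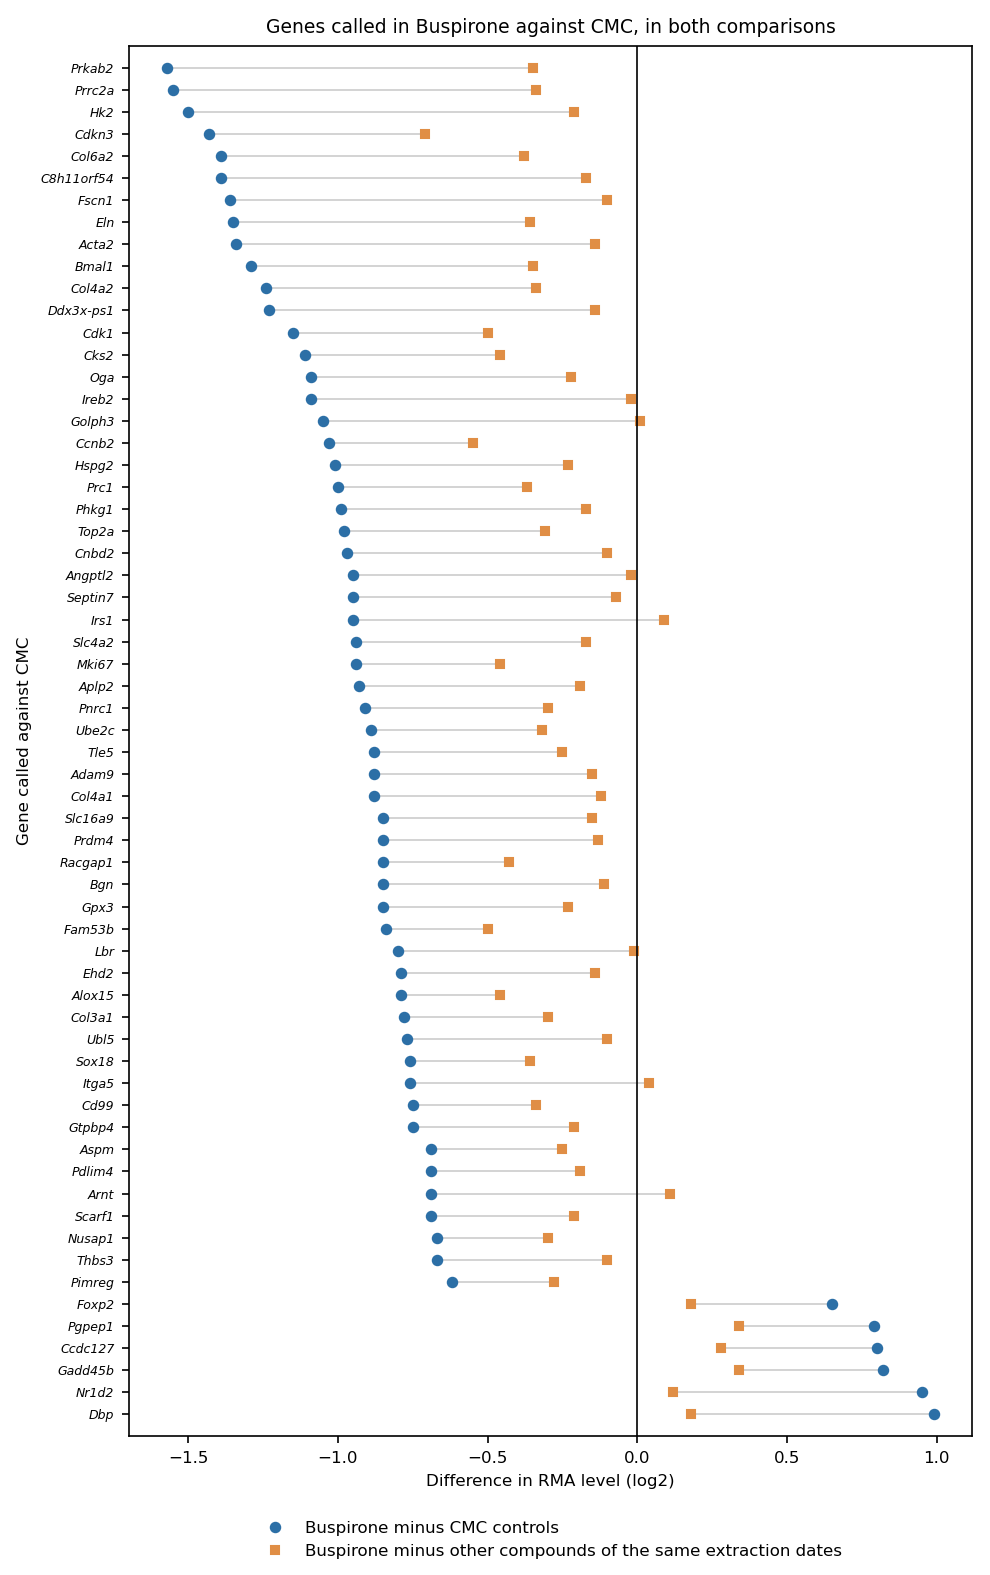
Difference in RMA level (log2, horizontal axis) of each of the 62 genes called against CMC (rows). Circles are Buspirone minus CMC and squares Buspirone minus other compounds of the same extraction dates. The squares lie nearer to 0 than the circles, with 18 genes, all lower, at an unadjusted p under 0.05.

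Of the 62 called genes 12 act in cell division, 8 of them on the list of cell cycle genes. Cdkn3, which encodes a phosphatase acting on cyclin-dependent kinases, had levels of 4.17, 4.45 and 5.00 (lowest, median, highest) in Buspirone and 5.50, 5.83 and 6.77 in CMC. All 6 Buspirone arrays were below all 12 CMC arrays. The difference was -1.43 ± 0.16 (SE; limma adjusted p = 0.000322), the smallest p of all genes in that fit, and -1.38 (adjusted p = 0.0186) without the arrays with heart transcripts. Against the other compounds of the same dates it was -0.71 (95% confidence interval -1.16 to -0.27, unadjusted p = 0.00235, adjusted p = 0.896). Within single dates Cdkn3 in Buspirone minus the other compounds was -0.79 in batch E, -0.89 in batch G and -0.14 for the 1 array of batch D.

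Cdk1, the kinase that drives entry into mitosis, had levels of 4.47, 4.87 and 5.50 in Buspirone and 5.60, 5.96 and 6.71 in CMC, again without overlap. Its difference was -1.15 ± 0.17 (SE; adjusted p = 0.00239) against CMC and -0.50 (95% confidence interval -0.88 to -0.11, unadjusted p = 0.012) against the same-date compounds. By date Cdk1 was 0.73 lower in batch E and 0.54 lower in batch G, and stood at 5.50 against a mean of 5.45 for the other compounds in batch D. Ccnb2, a B-type cyclin partner of Cdk1, had levels of 4.39, 4.55 and 4.97 in Buspirone and 5.07, 5.65 and 6.40 in CMC. The groups did not overlap, with a difference of -1.03 ± 0.16 (SE; adjusted p = 0.00303) against CMC and -0.55 (unadjusted p = 0.0035) against the same-date compounds. Against Flunarizine alone Ccnb2 was 0.50 lower (unadjusted p = 0.000433, adjusted p = 0.949).

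**Figure D2:**
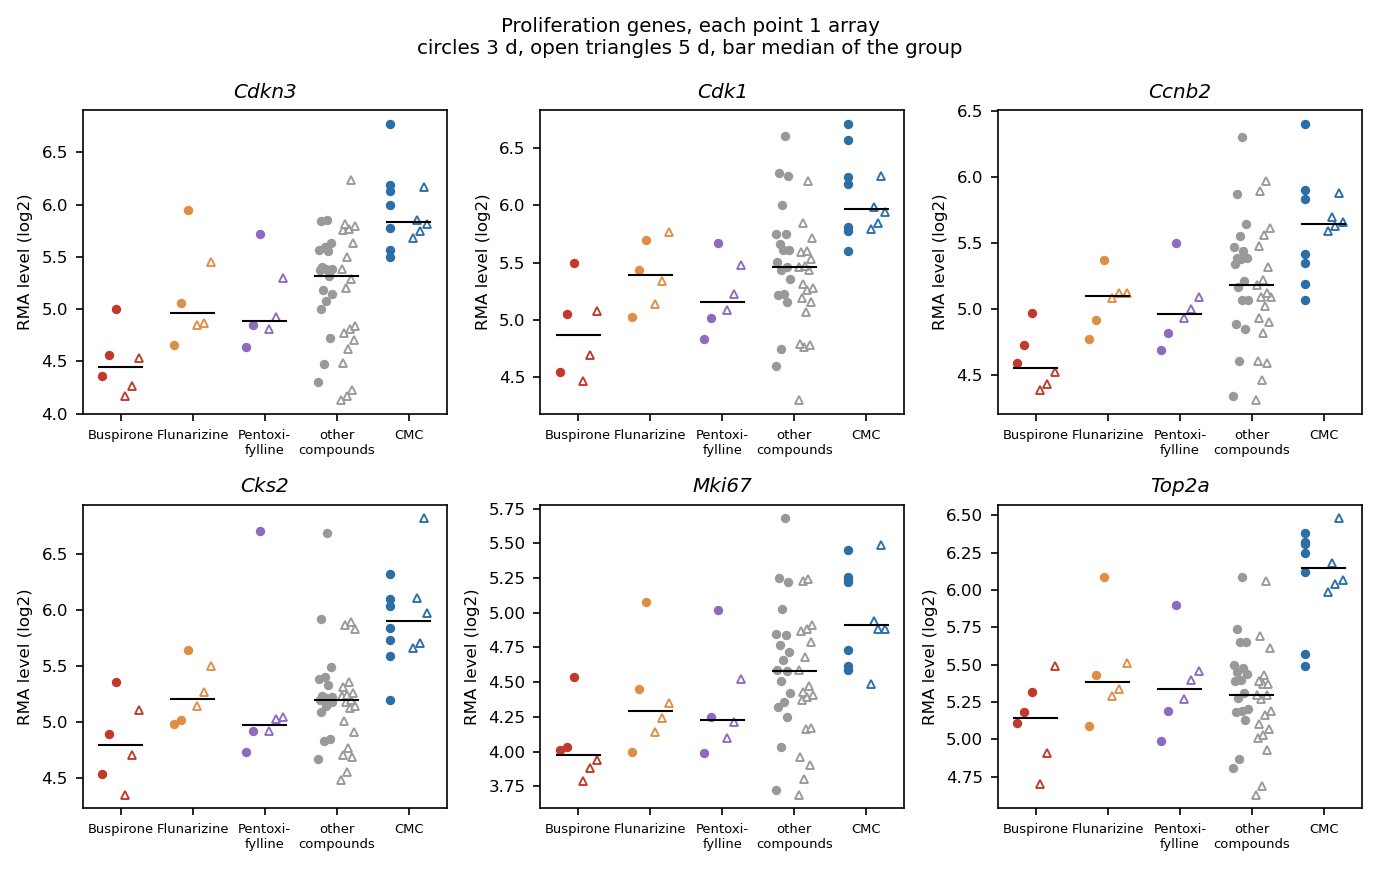
RMA levels (log2, vertical axis) of 6 genes of cell division in Buspirone, Flunarizine, Pentoxifylline, the other compounds of the same dates and CMC. Each point is 1 array, circles at 3 d and open triangles at 5 d, and bars are medians. The 6 Buspirone arrays lie at the low end, for Cdkn3 between 4.17 and 5.00 against 5.50 to 6.77 in CMC.

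Further steps of division were covered by called genes. Cks2, a small subunit of the kinase complex, was 1.11 lower in Buspirone than in CMC. Top2a, which untangles DNA before mitosis, was 0.98 lower, and Mki67, the Ki-67 protein that coats mitotic chromosomes, was 0.94 lower. Prc1, which bundles microtubules in the middle of the spindle, was 1.00 lower and Racgap1, which acts in cytokinesis, 0.85 lower. Ube2c, which loads ubiquitin for the anaphase-promoting complex, was 0.89 lower, and the spindle proteins Aspm and Nusap1 were 0.69 and 0.67 lower. Pimreg, also a gene of mitosis, was 0.62 lower. Of these, Ube2c, Aspm and Nusap1 had no overlap between the groups, and in Top2a the highest Buspirone array and the lowest CMC array met at 5.49. Further probe sets of Top2a, Racgap1 and Nusap1 were 0.09, 0.06 and 0.47 lower than in CMC. Ccna2, a cyclin of S phase and of entry into mitosis, was 0.86 lower but missed the threshold (adjusted p = 0.0149).

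In the list of 33 measured cell cycle genes, 8 fell, none rose, and the median difference was -0.34 against CMC and -0.19 against the same-date compounds, beside medians over all genes of 0.00 and -0.03. At an unadjusted p under 0.05, 17 members were lower against CMC and 13 against the same-date compounds, where 10.8% and 3.51% of all genes were lower. Without the arrays with heart transcripts these counts were 17 and 6, where 10.6% and 3.88% of all genes were lower, and the medians were -0.33 and -0.19. Without the 2 arrays with lymphocyte transcripts the median against the same-date compounds was -0.13, with 12 members lower at an unadjusted p under 0.05. Cks2, Aspm, Nusap1 and Pimreg were not on the list and were named after their values were seen.

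When every array of the series was fitted at once, with extraction date, compound, vehicle and time in the model, 18 genes (0.127%) were called for Buspirone, 16 lower and 2 higher. The 16 genes that were lower are all genes of cell division. Cdkn3 was 1.96 lower, Ccnb2 1.53, Mki67 1.52, Cks2 1.49 and Cdk1 1.39, and 12 of the 16 were also called lower against CMC. The others were Ccna2, Kif20a, a kinesin of cytokinesis, Arhgap11a and Plk4, the kinase that starts centriole duplication. The rises were Nr1d2 (0.94) and Tob2 (1.48), a member of an antiproliferative family. No CMC control lay in batches D, E or G, so the estimate rests on arrays of other groups. It assumes that the effects of date, vehicle, time and compound add up. In batch E the control Water 3 d replicate 8 was itself an array with heart transcripts (Mylk3 at 7.84). The fit was not repeated without the arrays with heart or lymphocyte transcripts.

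Promoters of 4 of the called genes of division are shown because these genes were lower together. They are RefSeq sequences of the rat build GRCr8, each 300 bases long around the start of the gene, read 5′ to 3′ on the strand of the gene. Capitals mark CCAAT (or ATTGG on the other strand), the core of the site of the factor NF-Y, and TTTGAA (or TTCAAA), the core of the CHR element, which is known for repressing genes of mitosis in resting cells.
Cdkn3 (chr15:22502136-22502435, plus strand): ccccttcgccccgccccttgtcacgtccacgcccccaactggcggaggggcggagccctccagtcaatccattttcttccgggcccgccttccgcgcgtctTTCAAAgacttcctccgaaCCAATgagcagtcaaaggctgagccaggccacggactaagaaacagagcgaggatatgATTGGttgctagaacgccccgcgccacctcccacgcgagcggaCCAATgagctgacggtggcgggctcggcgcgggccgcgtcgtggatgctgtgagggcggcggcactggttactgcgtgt
Cdk1 (chr20:19265043-19265342, plus strand): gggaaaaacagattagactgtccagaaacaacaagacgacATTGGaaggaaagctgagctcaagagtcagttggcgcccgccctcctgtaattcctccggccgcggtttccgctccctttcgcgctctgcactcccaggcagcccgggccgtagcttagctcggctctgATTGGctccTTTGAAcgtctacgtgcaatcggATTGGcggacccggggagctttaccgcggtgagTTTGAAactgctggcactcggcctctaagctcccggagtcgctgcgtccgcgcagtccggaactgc
Ccnb2 (chr8:79981609-79981908, minus strand): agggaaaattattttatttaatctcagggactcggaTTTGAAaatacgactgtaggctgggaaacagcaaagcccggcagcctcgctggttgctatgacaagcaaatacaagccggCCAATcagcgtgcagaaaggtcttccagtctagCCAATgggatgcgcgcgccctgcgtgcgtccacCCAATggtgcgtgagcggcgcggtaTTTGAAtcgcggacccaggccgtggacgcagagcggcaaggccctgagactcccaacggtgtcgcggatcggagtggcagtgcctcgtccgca
Top2a (chr10:84473044-84473343, minus strand): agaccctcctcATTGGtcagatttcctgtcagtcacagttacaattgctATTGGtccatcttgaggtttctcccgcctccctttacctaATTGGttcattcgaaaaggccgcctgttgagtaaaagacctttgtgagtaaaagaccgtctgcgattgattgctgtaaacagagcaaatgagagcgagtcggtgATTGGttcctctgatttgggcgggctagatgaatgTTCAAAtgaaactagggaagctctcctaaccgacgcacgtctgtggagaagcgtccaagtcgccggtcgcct

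A promoter was on hand for 9 of the 12 called genes of division, and all 9 held both motifs. Among the promoters of 11733 genes tested, CCAAT occurred in 37.3%, TTTGAA in 12.3% and both in 589 (5.02%). A match describes the letters in the window and no binding was measured. All 9 are genes of division, and no share is given for genes of division that were not called. The matches therefore cannot be tied to Buspirone.

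Transcripts of the matrix and the vessel wall fell next to those of division. Col6a2, a chain of the collagen that surrounds muscle fibres, had levels of 8.45, 9.22 and 9.53 in Buspirone and 9.95, 10.45 and 11.12 in CMC, with no overlap. Its difference was -1.39 ± 0.18 (SE; adjusted p = 0.00141) and was -1.41 without the arrays with heart transcripts. Against the same-date compounds Col6a2 was 0.38 lower (95% confidence interval -0.77 to 0.02, unadjusted p = 0.063). A further probe set of Col6a2 was 0.18 lower than in CMC.

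Eln, which encodes elastin, had levels of 7.05, 7.35 and 7.77 in Buspirone and 7.96, 8.67 and 9.97 in CMC, also without overlap. Its difference was -1.35 ± 0.24 (SE; adjusted p = 0.00646), and -0.36 (unadjusted p = 0.0243) against the same-date compounds. A further probe set of Eln was 0.51 lower than in CMC. Of the basement membrane, Col4a2 was 1.24 lower than in CMC, Hspg2, which encodes perlecan, 1.01 lower and Col4a1 0.88 lower. Bgn, the small proteoglycan biglycan, was 0.85 lower, Col3a1, a fibrillar collagen, 0.78 lower, and Thbs3, a thrombospondin, 0.67 lower. Itga5, the fibronectin receptor subunit, was 0.76 lower against CMC and 0.04 higher against the same-date compounds.

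Acta2, the actin of vascular smooth muscle, had levels of 8.35, 8.64 and 9.14 in Buspirone and 9.00, 9.89 and 11.07 in CMC. All but the highest Buspirone array lay below all CMC arrays. Acta2 was 1.34 lower than in CMC (SE 0.22, adjusted p = 0.00508) and 0.14 lower than in the same-date compounds (95% confidence interval -0.47 to 0.19). Fscn1, an actin-bundling protein, was 1.36 lower than in CMC and 0.10 lower than in the same-date compounds, and its further probe sets were 1.27 and 0.06 lower than in CMC. Sox18, a transcription factor of endothelial cells, was 0.76 lower than in CMC and 0.36 lower than in the same-date compounds (unadjusted p = 0.0132). Mcam, a surface protein of vessel cells, was 0.87 lower and missed the threshold narrowly (adjusted p = 0.0104).

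**Figure D3:**
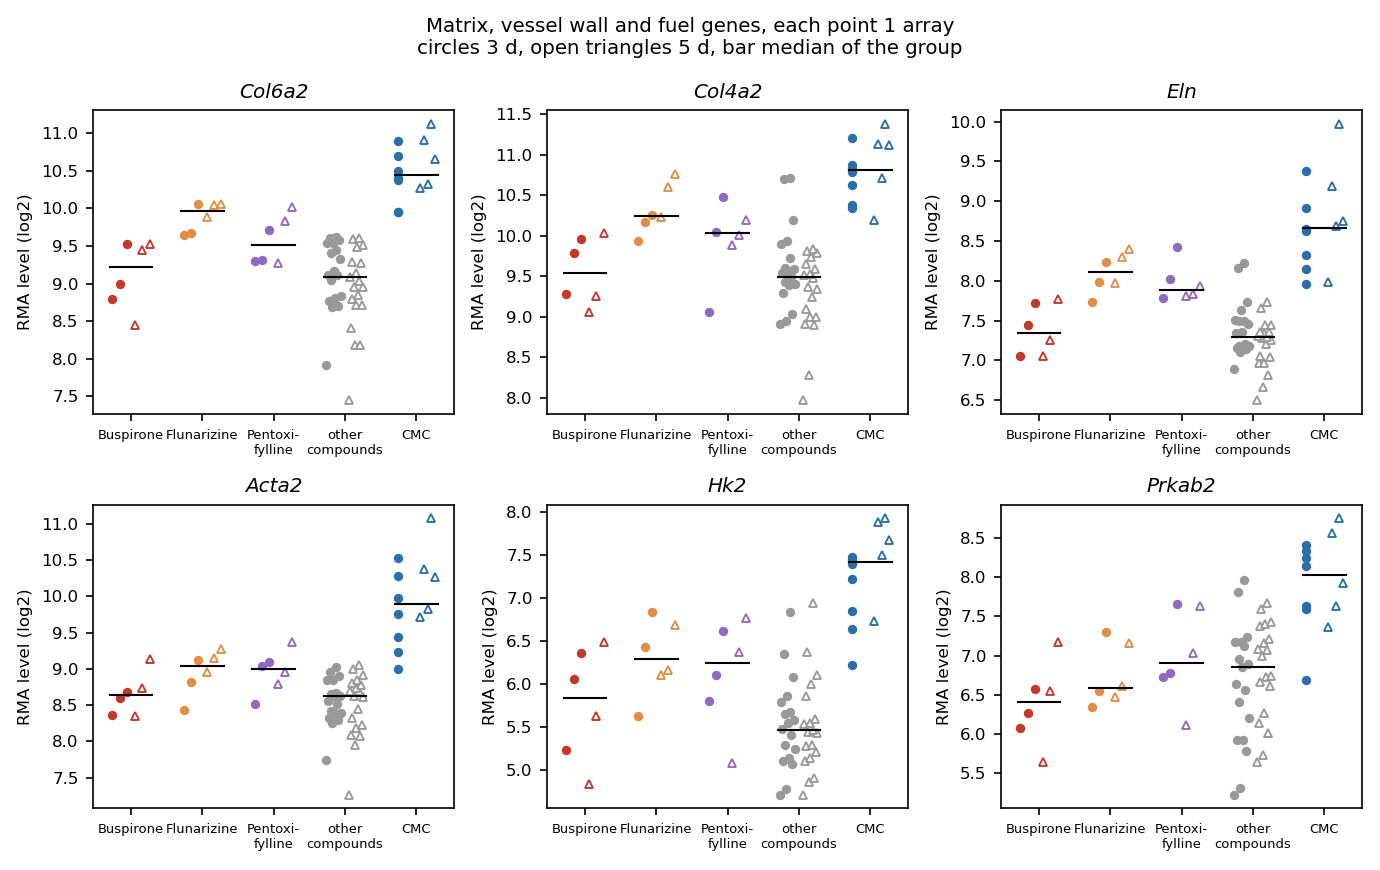
RMA levels (log2, vertical axis) of 6 genes of the matrix, vessel wall and fuel use in Buspirone, Flunarizine, Pentoxifylline, the other compounds of the same dates and CMC. Each point is 1 array, circles at 3 d and open triangles at 5 d, and bars are medians. Buspirone lies below CMC, for Col6a2 between 8.45 and 9.53 against 9.95 to 11.12, and overlaps the other compounds.

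Of 43 measured matrix genes, 5 fell and none rose, with a median difference of -0.63 against CMC. At an unadjusted p under 0.05, 33 of them were lower, against 10.8% of all genes. Against the same-date compounds the median was -0.18, and none of the 43 was lower at an unadjusted p under 0.05. Without the arrays with heart transcripts the medians were -0.77 and -0.31, with 36 and 2 genes lower. The 11 fibroblast markers share 4 genes with the matrix list (Col1a1, Col3a1, Dcn and Lum), so the lists are not independent. Their summed level was 13.57, 14.56 and 14.95 in Buspirone and 14.76, 15.25 and 15.72 in CMC. The lowest value belonged to Buspirone 5 d replicate 2, and the next was 14.14. Median differences were -0.51 for fibroblast markers and -0.46 for 11 smooth muscle markers, in each of which 1 gene, Col3a1 and Acta2, was called, and -0.62 for 12 macrophage markers and -0.46 for 14 fat cell markers, in which none was. In whole tissue, fewer cells of a type and less RNA per cell cannot be told apart. The part of these cells in the lower matrix levels was not tested.

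The highest macrophage and lymphocyte values in CMC were those of CMC 5 d replicate 2. The summed macrophage level was 10.44 to 11.48 in Buspirone and 11.10 to 14.03 in CMC, or at most 12.04 without that array. Its median was 10.93 in Buspirone and 11.46 in CMC with all arrays. Lymphocyte and neutrophil markers lay at 8.25 to 8.94 in Buspirone and at 8.29 to 12.73 in CMC, or at most 8.58 without that array. Neither list had a called gene. Without that array 85 genes were called, 60 of them among the 62.

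Single genes of fuel use in muscle were among the falls. Hk2, the hexokinase that traps glucose in muscle, had levels of 4.83, 5.83 and 6.48 in Buspirone and 6.22, 7.42 and 7.92 in CMC. Of the 6 Buspirone arrays 4 lay below all CMC arrays, and the difference was -1.50 ± 0.26 (SE; adjusted p = 0.00579). Against the same-date compounds it was -0.21 (95% confidence interval -0.58 to 0.16), and in the fit of all arrays 0.04, the opposite sign. Prkab2, a subunit of the energy sensor AMPK, was 1.57 lower than in CMC and 0.35 lower than in the same-date compounds, while a further probe set differed from CMC by 0.07, the opposite sign. Phkg1, the catalytic subunit of muscle phosphorylase kinase, was 0.99 lower than in CMC and 0.17 lower than in the same-date compounds.

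Irs1, the adaptor of the insulin receptor, was 0.95 lower against CMC and 0.09 higher against the same-date compounds. The lists around these genes had median differences near 0, with -0.06 for 25 glycolysis and glycogen genes, of which 2 fell, and -0.08 for 20 insulin signalling genes, of which 1 fell. Gpx3, the secreted glutathione peroxidase, was the called member of 20 antioxidant genes and was 0.85 lower than in CMC without overlap. Outside the lists, Fam53b was 0.84 lower than in CMC and 0.50 lower than in the same-date compounds (unadjusted p = 0.00478), and a further probe set 0.06 lower than in CMC. Alox15, a lipoxygenase, was 0.79 and 0.46 lower, and Cd99, a surface glycoprotein of leukocytes and vessels, 0.75 and 0.34 lower, with a further probe set 0.07 lower than in CMC.

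Among clock genes, 2 rose and 1 fell against CMC out of 20 measured. The estimated differences of all 3 from the other compounds of the same dates were smaller, though imprecise for Dbp and Bmal1. Nr1d2, a Rev-erb repressor, had levels of 9.77, 10.19 and 10.42 in Buspirone and 8.76, 9.24 and 9.55 in CMC, without overlap. The difference was 0.95 ± 0.13 (SE; adjusted p = 0.00141), and 0.12 (95% confidence interval -0.20 to 0.43) against the same-date compounds. Further probe sets of Nr1d2 gave 0.50 and -0.24. With the mean over the probe sets the difference was 0.41 (adjusted p = 0.0987).

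Dbp, an output gene driven directly by the clock, had levels of 7.53, 8.61 and 8.81 in Buspirone and 6.77, 7.41 and 7.63 in CMC. The lowest Buspirone array lay inside the CMC range. Dbp was 0.99 higher than in CMC (SE 0.17, adjusted p = 0.00508) and 0.18 higher than in the same-date compounds (SE 0.45). Bmal1, the activator of the loop, had levels of 5.84, 6.80 and 7.61 in Buspirone and 7.29, 8.02 and 8.65 in CMC. It was 1.29 lower than in CMC (SE 0.24, adjusted p = 0.00965), with some overlap, and 0.35 lower than in the same-date compounds (95% confidence interval -1.08 to 0.39). The hour of sampling is not given in the sources used, and its part in these levels was not tested.

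The promoter of Bmal1 is shown for the motif TAGGTCA, in capitals, a form of the response element of ROR and Rev-erb proteins, which in mammals act on Bmal1. It occurred once there and in 1.79% of the 11733 promoters (both strands), and it was not in the windows of Nr1d2, Dbp, Per1, Per3 or Nr1d1. The motifs CACGTG (E-box) and TTATGTAA (D-box) were also looked for and did not occur in these windows or that of Bmal1.
Bmal1 (chr1:176766078-176766377, plus strand): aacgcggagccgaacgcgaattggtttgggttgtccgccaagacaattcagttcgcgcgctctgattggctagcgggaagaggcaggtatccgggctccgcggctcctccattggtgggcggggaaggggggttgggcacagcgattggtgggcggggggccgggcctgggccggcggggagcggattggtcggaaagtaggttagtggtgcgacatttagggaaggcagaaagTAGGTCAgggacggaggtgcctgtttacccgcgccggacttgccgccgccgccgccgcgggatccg

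**Figure D4:**
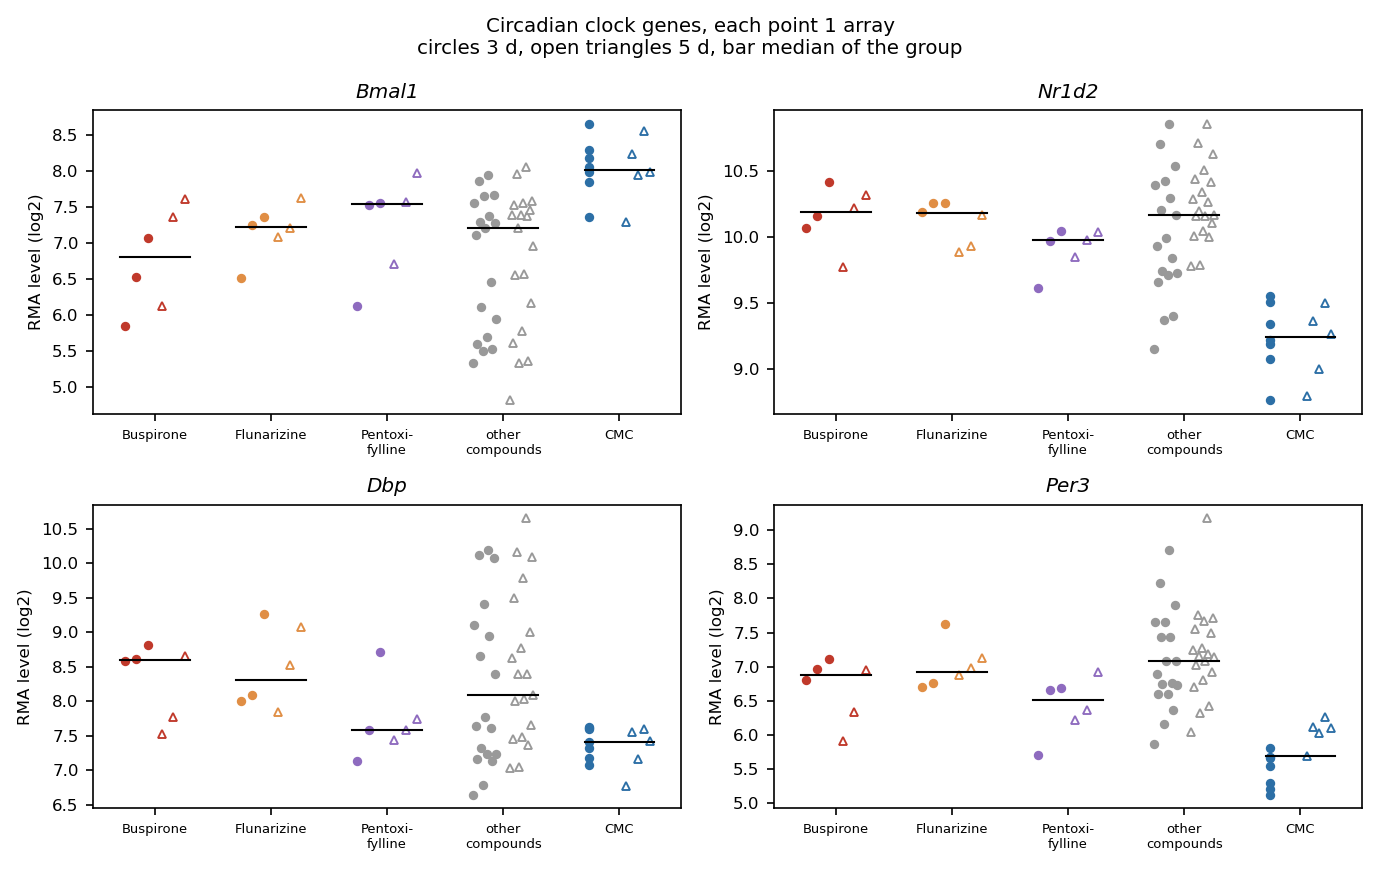
RMA levels (log2, vertical axis) of 4 clock genes in Buspirone, Flunarizine, Pentoxifylline, the other compounds of the same dates and CMC. Each point is 1 array, circles at 3 d and open triangles at 5 d, and bars are medians. Nr1d2 lies at 9.77 to 10.42 in Buspirone and 8.76 to 9.55 in CMC, and the other compounds, Flunarizine and Pentoxifylline included, range from 9.15 to 10.86.

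The other rises against CMC were small. Gadd45b, a stress-induced growth arrest gene, was 0.82 higher, Ccdc127 0.80 higher, Pgpep1, a pyroglutamyl peptidase, 0.79 higher and Foxp2, a forkhead transcription factor, 0.65 higher. Against the same-date compounds these genes were 0.34, 0.28, 0.34 and 0.18 higher, each with a confidence interval that included 0. Gadd45b was the 1 called member of 30 glucocorticoid and fasting genes, whose median difference was 0.17 against CMC and -0.08 against the same-date compounds.

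Receptors for Buspirone and its metabolite were measured by 13 genes, and none was called in any comparison. Htr1a, the main target, had levels of 4.74, 5.00 and 5.20 in Buspirone and 4.60, 4.94 and 5.42 in CMC. The ranges coincided, and the difference was 0.03 (95% confidence interval -0.19 to 0.24). The other serotonin receptors Htr2a, Htr2b, Htr2c and Htr7, the dopamine receptors Drd2, Drd3 and Drd4, and the adrenergic receptors Adra1a, Adra1b, Adra2b and Adra2c had differences between -0.10 and 0.12. Adra2a was 0.60 lower (95% confidence interval -1.31 to 0.11), with CMC 5 d replicate 2 at 7.56 and the highest Buspirone array at 4.51. The levels of these genes were low, and whether the probe sets detect them in muscle is not known from the table.

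**Figure D5:**
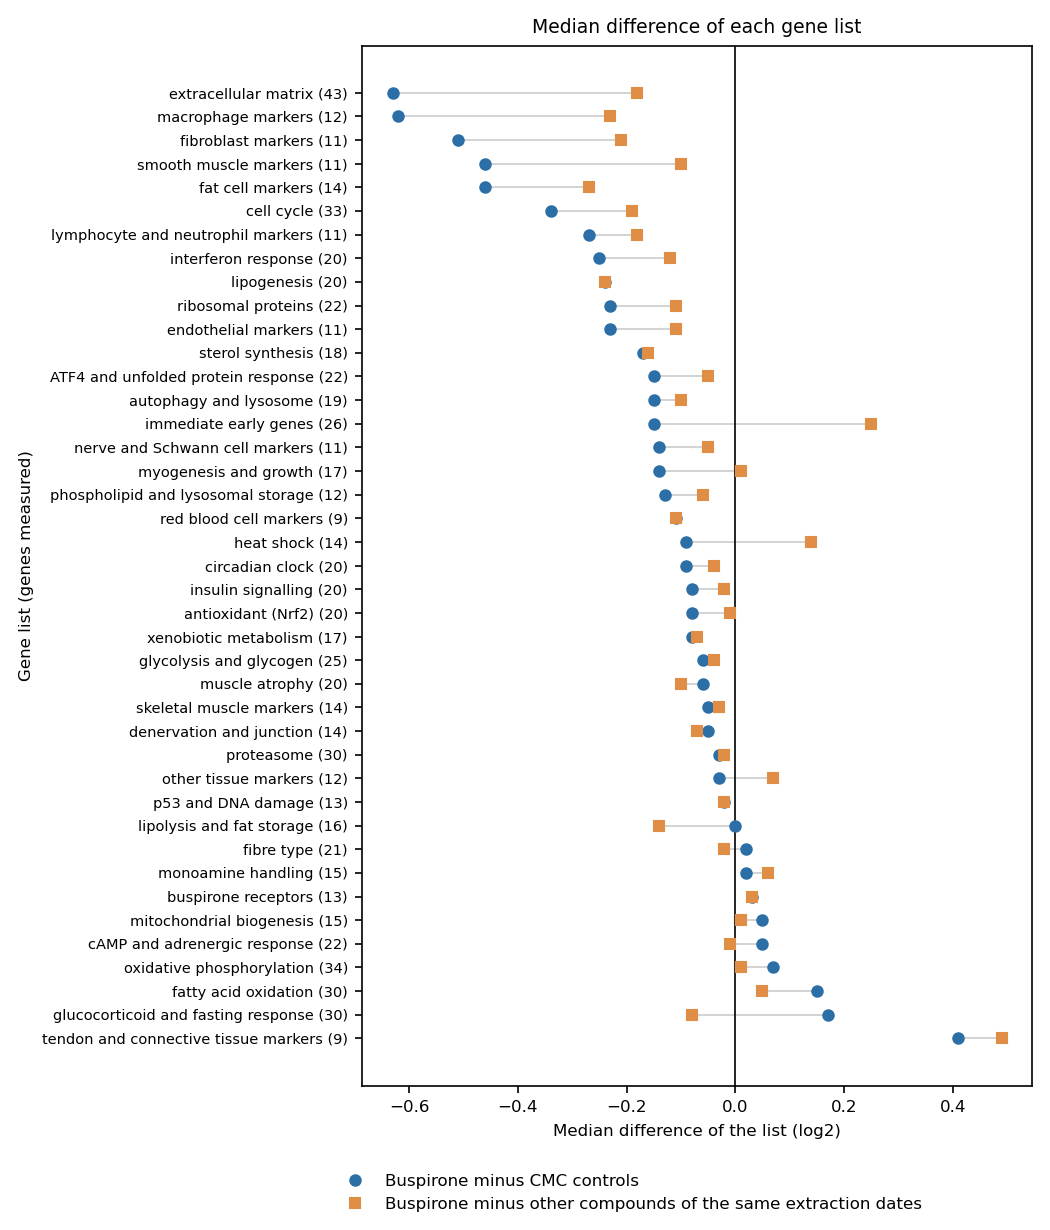
Median difference in RMA level (log2, horizontal axis) of the genes of each list (rows, number measured in brackets). Circles are Buspirone minus CMC and squares Buspirone minus other compounds of the same extraction dates. Matrix and macrophage lists lie lowest against CMC, at -0.63 and -0.62, and at -0.18 and -0.23 in the other comparison.

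Set directly against Flunarizine, a calcium channel blocker, and against Pentoxifylline, a phosphodiesterase inhibitor, Buspirone had 0 called genes by limma and by the methods' t-test, with 482 (3.39%) and 292 (2.05%) genes at an unadjusted p under 0.05. Cdkn3 was 0.70 lower than in Flunarizine and 0.67 lower than in Pentoxifylline, and Cdk1 0.59 and 0.50 lower. The median of the 33 cell cycle genes was -0.15 against Flunarizine and -0.25 against Pentoxifylline, beside -0.05 and -0.03 over all genes. The value against Pentoxifylline depended on Pentoxifylline 3 d replicate 3, the array with lymphocyte transcripts, which had the highest summed level of cell cycle genes among the Pentoxifylline arrays (12.25, against at most 11.50 on the others). Without it the median against Pentoxifylline was -0.14, Cdkn3 was 0.53 lower and Cdk1 0.42 lower. Matrix genes had medians of -0.27 and -0.19.

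The 5 genes with the smallest p against the same-date compounds were not those called against CMC. Stat2, a transcription factor of interferon signalling, had levels of 6.73, 6.91 and 7.18 in Buspirone and 6.98, 7.23 and 7.95 in the other compounds, with a difference of -0.37 (unadjusted p = 6.09e-05, adjusted p = 0.811). It was 0.39 lower than in CMC (adjusted p = 0.0916). Gem, a small GTPase that restrains calcium channels, was 0.61 higher than in the same-date compounds (unadjusted p = 0.00031), or 0.42 higher (unadjusted p = 0.0276) without the arrays with heart transcripts, and 0.75 higher than in CMC (adjusted p = 0.0121). Sik1, a salt-inducible kinase, was 0.55 higher than in the same-date compounds and 0.20 higher than in CMC. Npy1r, a neuropeptide Y receptor, was 0.78 and 0.31 lower, and Prkdc, a DNA repair kinase, 0.44 and 0.17 lower. These genes were named for their rank in p and none passed the adjusted threshold.

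Of the undosed rats, 3 shared the code in the sample titles of the Buspirone arrays, and they had received Water. These arrays lay in batches B and C and in the earlier hybridization period, so extraction and treatment cannot be told apart here either. Against them 3 genes (0.0211%) were called, all higher. Arrdc2, an alpha-arrestin induced by glucocorticoids, had levels of 8.24, 8.73 and 9.79 in Buspirone and 6.38 to 6.79 in the Water controls, a difference of 2.46 (adjusted p = 0.00863). Ddit4, an inhibitor of mTOR, was 2.74 higher (adjusted p = 0.00922) and Per1 1.35 higher (adjusted p = 0.00863). The groups did not overlap in any of the 3 genes. The share of all genes without overlap between these groups was not counted. Against CMC the 3 genes were 1.49, 1.60 and 0.71 higher with adjusted p of 0.0507, 0.137 and 0.0825, and in CMC Arrdc2 spanned 6.29 to 9.67. Against the same-date compounds Arrdc2, Ddit4 and Per1 differed by -0.12, 0.37 and 0.13, against Flunarizine by -0.67, -0.15 and -0.14 and against Pentoxifylline by -0.46, -0.58 and -0.10. Cdkn3 was 1.42 lower than in Water (adjusted p = 0.0397). The count was 0 when any Buspirone array was left out.

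By time, 2 genes (0.0141%) rose at 3 d against CMC at 3 d, Per3, a Period gene of the clock, by 1.48 and Pgpep1 by 1.10, both with an adjusted p of 0.00703. At 5 d Prrc2a fell by 2.22 (adjusted p = 0.00682; 0.00703% of genes called), and Mfap4, a protein of elastic fibres, was 3.05 lower (adjusted p = 0.0149). With both times together, Per3 was 0.19 lower than in the same-date compounds, the opposite sign, and Pgpep1 0.34 higher. Prrc2a was 0.34 lower there and Mfap4 0.60 lower. Cdkn3 was 1.35 lower at 3 d and 1.53 lower at 5 d. No gene was called for the difference between the times by limma, with 528 genes (3.71%) at an unadjusted p under 0.05. The smallest p values there belonged to Nt5dc1 (-1.44), Pim3, a kinase of growth signalling (-0.98), and Per3 (-1.12), each with an adjusted p of 0.917. Leaving out any 3 d Buspirone array gave 0 calls at 3 d. At 5 d the count was 26 without Buspirone 5 d replicate 1, 7 without both arrays with heart transcripts, 3 without Buspirone 3 d replicate 1, 2 without Buspirone 3 d replicate 3, and 0 without Buspirone 5 d replicate 2, Buspirone 5 d replicate 3 or CMC 5 d replicate 2.

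Lists other than those above had no called gene. Among them the median difference was 0.15 for 30 fatty acid oxidation genes and 0.07 for 34 oxidative phosphorylation genes against CMC, and -0.23 for 22 ribosomal protein genes. Fibre type genes varied widely within groups. Myh7, the slow myosin, ranged from 8.64 to 13.45 in Buspirone and 4.11 to 13.72 in CMC, and its difference was 0.40 (95% confidence interval -2.98 to 3.77). Fbxo32, a ubiquitin ligase of muscle atrophy, was 0.71 lower than in CMC (adjusted p = 0.104), and Hbb, a globin of red cells, 1.05 lower (adjusted p = 0.0302).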

How the data were processed

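Thigh muscle transcripts measured on Affymetrix RG230_2.0 arrays were used. The deposited log2 values had been made by the authors with RMA, as the submitters' processing notes state, a method that corrects background, equalises array distributions and summarises probes. The sources used here give neither the RMA version nor the set of arrays it was run on. RMA compresses changes of dim transcripts, and the table holds no detection calls, so signal over background is unknown and the number of arrays limits precision. Array medians lay between 5.69 and 5.89. All columns were used (0 left out).

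Of 31099 probe sets, 57 were controls, 20826 had 1 gene symbol, 436 several and 9780 none named here. Each of the 14217 genes was represented by its probe set with the highest mean, and 14167 matched the rat gene table. Groups came from the labels, and replicates are numbered in order of deposit. The title of CMC 3 d replicate 3 gives another time than its other labels. Title codes were taken to mark arrays handled together.

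Levels were fitted with limma 3.58.1 in R 4.3.3 (lmFit and eBayes) with time, after the study's methods, and with extraction date where Buspirone shared it. Adjusted p values are limma's, by Benjamini-Hochberg over all genes of a comparison. They rest on the spread between arrays, with 1 array per animal sample. Against CMC and Water that spread also holds differences between extraction dates, which were not in the model. Against the same-date compounds it also holds differences among those compounds, whose arrays were treated as independent. Tables and figures were made in Python 3.11.15 with pandas 2.3.3 and matplotlib 3.10.9. The methods' t-test was run as an alternative. Fits were tested on simulated data drawn without effects of extraction date or hybridization period, so those tests do not bear on such effects.

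Buspirone, the gene lists and the tests were chosen with earlier results of these data known. Genes named were the 12 largest rises and falls called against CMC that also had the same sign and an unadjusted p under 0.05 against the same dates, called list members or, where a list had none, up to 3 with the smallest p, all receptors, and the 3 smallest p by time. Other genes, the heart transcripts and their threshold (Mylk3 above 6) were chosen after their values were seen.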

Additional observations from a re-analysis of the deposited data

Results flagged for a closer look

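In 24 of 244 groups of values, the highest or lowest CMC array stood apart from its group by more than Dixon's critical value. Chance alone would give this in about 1 in 20 independent groups. Some genes were chosen after their values were seen, and the groups share arrays, so the count cannot be set against that rate. CMC 5 d replicate 2 accounted for 12 of the 24 groups. Its lymphocyte genes Ms4a1 and Cd3g stood at 9.29 and 10.26, against nearest values of 3.81 and 4.93 at that time. Its summed levels were 12.73 for lymphocyte and neutrophil markers, 14.03 for macrophage markers and 12.22 for cell cycle genes. Ucp2 stood at 11.43, Slc22a3 at 7.43, Prkdc at 7.63 and Adra2a at 7.56, all high, and Myog at 8.32, Adra2c at 5.10 and Htr2b at 3.73, all low.

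CMC 3 d replicate 7 accounted for 7 groups. Htr1a stood at 5.42, Drd4 at 5.58, Adra2a at 5.55, Adra2b at 6.42, Mylk3 at 4.77 and Tnni3 at 7.21, all high, and Phkg1 at 10.00, low. The slow fibre genes Myh7 and Tnnt1 stood at 4.11 and 4.39 on CMC 5 d replicate 5, against nearest values of 12.62 and 10.25. Col4a1 stood at 11.94 on CMC 3 d replicate 6, Drd2 at 5.10 on CMC 3 d replicate 5, and the summed level of fat cell markers at 14.13 on CMC 3 d replicate 3.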

How the results depend on the processing

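Of the 62 genes called against CMC, the 40 named in the text gave 1428 values over 36 settings. Of these values 1427 had the sign reported and 921 were called. The genes were chosen for their difference in arrays that most settings fit again, so agreement in sign was largely given. The same-date comparison is not among the settings. The exception was Hk2, 0.04 in 1 fit of all arrays with a fixed block of extraction date. Of all 62 genes, 3 had the opposite sign in that fit. It called 18 genes, 13 of them shared. The count was 101 with the mean over probe sets, 8 by the methods' t-test, 366 at an adjusted p of 0.05 with no limit on the fold, 81 after quantile normalization (16 higher and 65 lower), 26 with the Gapdh difference as a covariate, 21 with arrays of the earlier hybridization period only (10 higher and 11 lower, 7 shared), 166 with CMC and Water controls together (58 shared), and 3 with Water controls in place of CMC. In the earlier period the Buspirone arrays were only the 2 with heart transcripts. The count was 0 without the arrays with heart transcripts and 2 when CMC 3 d replicate 7 was left out as well. These last settings were chosen after seeing the data. Leaving out 1 array gave 1 to 85 genes: 1 without Buspirone 3 d replicate 1, 26 without 3 d replicate 2, 28 without 5 d replicate 1, 29 without 5 d replicate 2, and 34, 34 and 40 without CMC 5 d replicates 3 and 4 and 3 d replicate 6. A random block of extraction date gave 51.

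Against the same-date compounds, Flunarizine and Pentoxifylline the count was 0 in every setting run. Against Water it was 0 without any 1 Buspirone array and without the arrays with heart transcripts. At 3 d it was 0 to 3 with 1 array left out and 0 without the arrays with heart transcripts, and at 5 d 0 to 26 and 7. The difference between the times gave 0 throughout. No paired analysis was possible because replicate numbers follow the order of deposit and mark no shared animal or batch. Depth is not defined for arrays, and dim genes such as the receptors are limited by an unknown background.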

Other observations

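Heart transcripts occurred beyond Buspirone. Mylk3 stood at 8.05 on 1 array of Dexchlorpheniramine, 7.94 on 1 of Phenytoin, 7.63 on 1 of Guanethidine, 7.54 on 1 of Gabapentin, 7.03 on 1 of Trimethadione and 7.84 on 1 Water control, all of batch E, where the remaining arrays had at most 5.05. On 1 array of Famotidine, of batch C, Mylk3 stood at 10.54, Tnnt2 at 13.96 and Tnni3 at 13.35, the highest of the 9 arrays.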
